A study of Mus musculus with 69 samples.

Results

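Genes of mitochondrial and peroxisomal fatty acid oxidation were followed through murine vascular cells that had met metabolic stress, humoral stress or both. The group was a fixed list of 34 genes, chosen by name for their roles in the degradation of acyl-CoA, with earlier results of these data known, out of 56953 gene identifiers counted in 69 bulk RNA-seq libraries. Of these 34 genes, the filter on low counts passed 33 in wild-type and 34 in Egfr-deleted smooth muscle cells and 33 in endothelial cells. Acox2 was the gene left out.

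Vascular smooth muscle cells (VSMC) came from the aorta of male C57BL/6 mice, either wild type (WT VSMC) or with floxed Egfr deleted by a Cre recombinase under the smooth muscle promoter SM22 (KO VSMC). Egfr encodes the epidermal growth factor receptor, a tyrosine kinase that also relays signals of angiotensin II and catecholamines. Endothelial cells (EC) came from the heart of mice of the same strain and sex and were selected as CD45-negative and then CD31-positive cells with magnetic beads. All EC are labelled wild type, including sets 15 and 16 from animals that also gave KO VSMC (sets 7 and 6). All cultures were kept for 24 h either without added stressor (Control), with 20 mM glucose and 100 µM free fatty acids (HG + FFA, metabolic stress), with angiotensin II at 30 nM and 300 nM epinephrine (AII + NA, humoral stress), or with the 4 agents together (ALL). The labels name epinephrine and the methods of the study norepinephrine, and the labels give 1 concentration for the fatty acids where the methods name oleate and palmitate at 100 µM each. Each numbered set held the cells of 1 animal divided among the conditions. There were 4 sets of WT VSMC (1 to 4), 4 of KO VSMC (5 to 8, with no ALL library in set 5) and 10 of EC (9 to 18, giving 9, 10, 9 and 10 libraries in the order Control, HG + FFA, AII + NA and ALL). EC sets 17 and 18 came from 1 animal, and a few animals gave both VSMC and EC.

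Fatty acids enter mitochondria as acylcarnitines and are shortened in a repeated cycle. An acyl-CoA dehydrogenase introduces a double bond, a hydratase adds water, a hydroxyacyl-CoA dehydrogenase oxidises the alcohol and a thiolase releases acetyl-CoA, while isomerases and a reductase remove the double bonds of unsaturated chains such as oleate. Electrons of the dehydrogenases pass through the electron transfer flavoprotein to the respiratory chain. Peroxisomes shorten very long, branched and other difficult chains with acyl-CoA oxidases, bifunctional enzymes and thiolases of their own. In many tissues these genes are targets of peroxisome proliferator-activated receptors (PPARs), nuclear receptors that bind fatty acids.

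Total counts ranged from 23626664 to 37801299 in WT VSMC, from 23238979 to 35120866 in KO VSMC and from 17166133 to 43240489 in EC, of which the 34 genes took 0.168% to 0.302%. RNA abundance is given as FPM, the CPM of the TMM-normalised libraries. Egfr RNA averaged 355 ± 88.0 FPM in the 4 WT sets (SD) and 10.2 ± 17.6 FPM in the 4 KO sets. In KO sets 6 to 8 it was 0.270% to 0.519% of the WT mean, whereas set 5 kept 10.3%. EC sets 9, 11 and 13 stood apart, since 9 endothelial markers summed to 60.4, 140.4 and 62.3 FPM there and to 548 to 4515 FPM in the other EC sets. Fibroblast markers summed to 3614, 8886 and 9991 FPM and smooth muscle markers to 865, 3302 and 3014 FPM in the same 3 sets, against 609 to 4330 FPM and 219 to 741 FPM in the other EC sets, and Egfr was at 133 to 154 FPM against 2.61 to 43.8 FPM. Sets 15 and 16, whose animals also gave KO VSMC, had 9.31 and 2.61 FPM of Egfr (2.62% and 0.735% of the WT VSMC mean), the lowest values among the 10 EC sets, although labelled wild type. The defining markers thus went against the EC label in sets 9, 11 and 13, which are called EC here only as labelled. Their part in the EC results is shown by the values without them. In sets 10, 16 and 17 fibroblast markers also summed higher (2343, 3306 and 4330 FPM) than endothelial markers (1964, 790 and 548 FPM). In every VSMC set, too, fibroblast markers summed higher than smooth muscle markers. The sums were 4360.5 to 9375 against 773 to 1302 FPM in the WT sets. In KO they were 5919 against 3282 FPM in set 5 and 1525 to 2177 against 900 to 2016 FPM in sets 6 to 8. VSMC are thus also named as labelled, and the part of these sums in comparisons of WT and KO VSMC was not tested. Calls against Control in EC that were lost without sets 9, 11 and 13, or without sets 15 and 16, are given beside the gene. Adipocyte markers summed to at most 1.70 FPM in any library. In bulk RNA a smaller share of a cell type and less RNA per cell cannot be told apart.

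Under Control conditions, the abundance per kilobase of transcript differed widely among the 34 genes, and their order was much the same in the 3 cell types. Ech1, which encodes an isomerase for dienes of unsaturated chains, had the highest level per kb in WT VSMC with 157 ± 37.0 FPM per kb (SD, n = 4), followed by the peroxisomal thiolase gene Acaa1a with 113 ± 16.4. In KO VSMC (n = 4) Ech1 was at 136 ± 39.4, Acaa1a at 128 ± 30.8 and Hsd17b10 at 119.9 ± 68.3 FPM per kb. In EC (n = 9) Ech1 came second with 80.9 ± 14.7, next to Acaa1a with 84.8 ± 25.4 FPM per kb. The SD intervals of these neighbours overlapped in each cell type, so their order is not settled by the spread. Etfa, the alpha subunit of the electron transfer flavoprotein, followed in WT VSMC with 77.5 ± 8.36 FPM per kb, close to Hsd17b10 with 74.1 ± 11.8 and Eci2 with 71.8 ± 4.47. In WT VSMC and in KO VSMC 10 genes exceeded 50 FPM per kb, in EC 3 did. The lowest levels per kb belonged to peroxisomal genes, namely Acox2 with 0.0218 ± 0.0202 in WT VSMC, the transporter gene Abcd2 with 1.04 ± 0.120 and the bifunctional enzyme gene Ehhadh with 2.05 ± 0.448. Across the 34 genes, Spearman's rho of the Control levels was 0.994 between WT and KO VSMC and 0.975 between WT VSMC and EC, a description over genes that share transcript length and library depth.

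**Figure D1:**
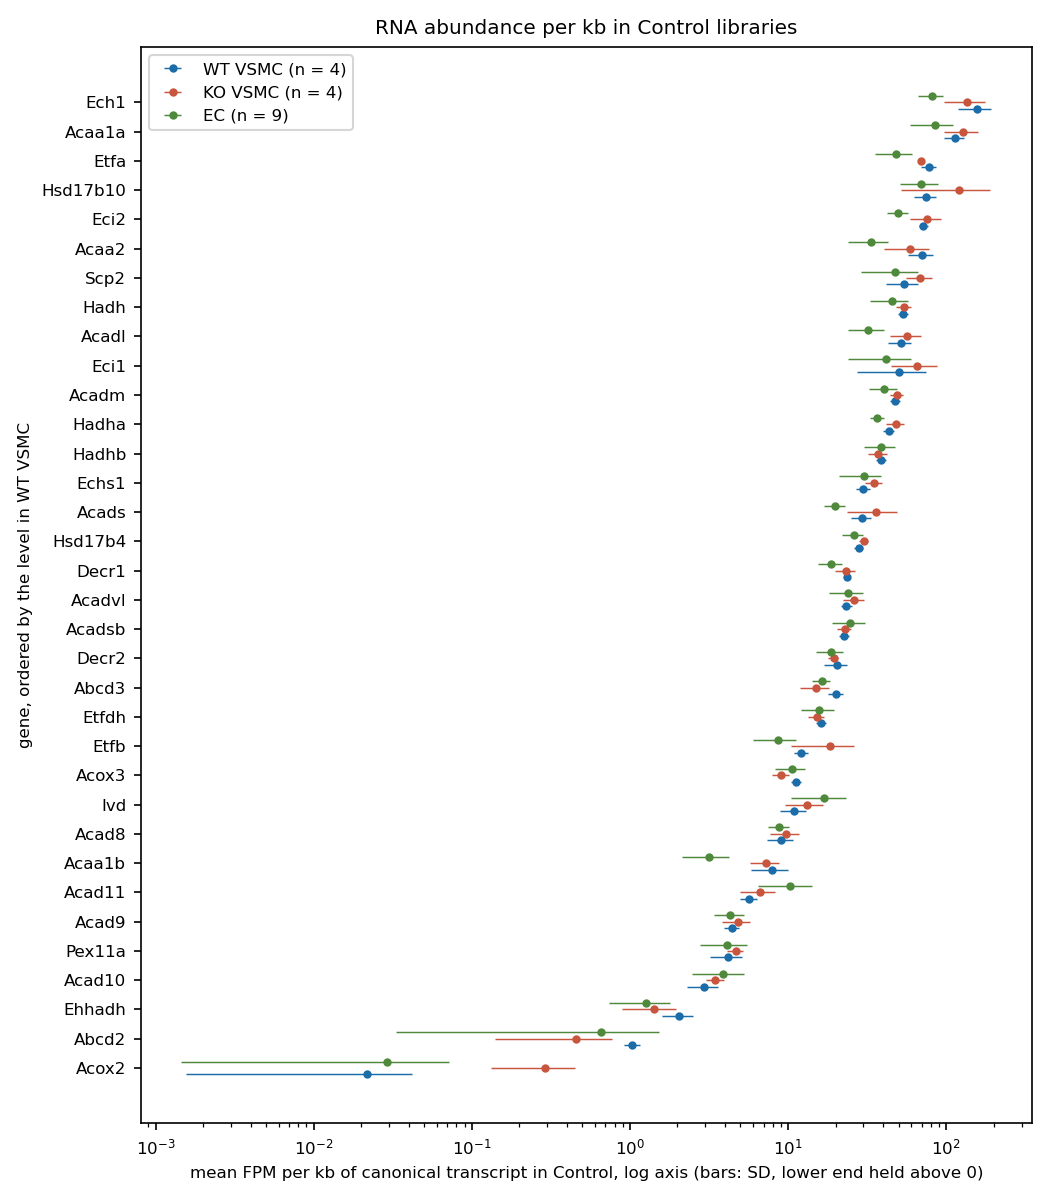
Mean RNA abundance per kilobase of canonical transcript in Control libraries on a log axis (FPM per kb), 1 row per gene in the order of WT VSMC, with 1 point per cell type and the SD as bars (n = 4 WT VSMC, 4 KO VSMC, 9 EC). Ech1 and Acaa1a stand at the top and Acox2 at the bottom in each cell type.

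Some enzymes were less abundant in EC than in WT VSMC before any stressor was given. In edgeR's quasi-likelihood test with Benjamini-Hochberg adjustment over 17115 genes, 7 of 33 members were lower in EC and none was higher, where 6.7% of all genes were higher, 5.35% lower and 12% either. Acaa2, the matrix thiolase for medium and long chains, had 94.4, 146, 117 and 134 FPM in the WT VSMC Control libraries and 35.8 to 87.7 FPM in EC (median 56.5), so the groups did not overlap. Its log2FC was -1.06 ± 0.21 (SE, FDR 0.00863 in edgeR). Ech1 stood at 133, 199, 223 and 239.8 FPM in WT VSMC and at 78.2 to 137 FPM in EC (median 99.7), a narrow overlap, with a log2FC of -0.94 ± 0.18 (FDR 0.00692 in edgeR). The peroxisomal thiolase gene Acaa1b had a log2FC of -1.29 ± 0.30 (FDR 0.0160 in edgeR), from 9.90 to 17 FPM in WT VSMC and 2.1 to 7.12 FPM in EC. Its level is uncertain, because reads mapping to several places were counted and Acaa1a is a near-identical paralog. Acadl (-0.67 ± 0.19), Etfa (-0.67 ± 0.20), Acads (-0.54 ± 0.14) and Eci2 (-0.51 ± 0.14) were the other genes lower in EC. Cell type cannot be told apart here from organ, culture medium and the labelled batch, since all EC libraries were in batch B2. The count fell to 3 without sets 15 and 16, where Acadl, Acads, Etfa and Eci2 were lost (FDR 0.0570 to 0.0787 in edgeR), and to 3, 2, 3 and 3 without WT set 1, 2, 3 and 4 and to 4 without EC set 15, and it was 11 (9 lower, 2 higher) without EC sets 9, 11 and 13, the higher ones being Acad11 (1.15) and Ivd (0.85). The share of all genes called moved too, to 5.84% without sets 15 and 16, to 3.72% to 4.9% without a WT set, to 8.47% without EC set 15 and to 28.5% without EC sets 9, 11 and 13. DESeq2 called 8 members and 21.1% of genes with an adjusted p, adding Acad11 as higher in EC (0.89, FDR 0.0223). EdgeR also called Acad11 higher without EC set 9, 11 or 13 singly (10.6%, 16.6% and 19.4% of all genes called). With all conditions in the fit (19.3%) it added Acad11 as higher (0.88) and Abcd3 (-0.30) and Decr1 (-0.33) as lower.

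Deletion of Egfr went with no called difference among the 34 genes under Control conditions (edgeR), where 0.00622% of 16089 genes tested were called. The same fit did not call Egfr itself (log2FC -5.15 ± 1.37, FDR 0.320 in edgeR, 0.00832 in DESeq2), so the absence of calls says little about differences of the members. At an unadjusted p below 0.05 there were 1 higher and 3 lower genes, where 12.2% of all genes passed. Acox2, the peroxisomal oxidase for branched chains and bile acid intermediates, was the higher one, with 0.120, 0, 0.0272 and 0.108 FPM in WT VSMC and 0.452, 0.605, 1.5 and 0.850 FPM in KO VSMC. The groups did not overlap, but all values lay near the limit of detection. The fitted log2FC of Acox2 was 3.66 ± 0.74 with an FDR of 0.204 in edgeR and 0.00324 in DESeq2, which called no other member and 2.14% of all genes with an adjusted p. Without KO set 5 edgeR called it too (log2FC 3.86, FDR 0.0447), in a fit that called 2.41% of all genes.

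Under metabolic stress a few enzymes of the pathway changed, most of all the auxiliary isomerase gene Ech1, while most members did not pass the test. With a gene called at an FDR below 0.05 in edgeR over all genes tested, HG + FFA against Control gave 1 higher gene of 33 in cultures of WT VSMC (background 0.319% of all genes higher, 0.219% lower), 2 higher of 34 in KO VSMC (0.336% and 0.103%) and 4 higher and 3 lower of 33 in EC (1.64% and 1.88%). The median log2FC over the members was 0.05, -0.01 and -0.02 in the same order of cell types, against -0.01, 0.00 and 0.00 over all genes tested. AII + NA against Control gave no called member in any cell type, with edgeR or with DESeq2. At an unadjusted p below 0.05, edgeR gave 2 higher and 2 lower members in WT VSMC, 1 and 4 in KO VSMC, and 0 and 7 in EC, where 9.42%, 9.76% and 6.67% of all genes passed. Over all genes under AII + NA, edgeR called 0.0532%, 0% and 0%, and DESeq2 1.13%, 0.0909% and 0% of genes with an adjusted p. ALL against Control gave 2 higher members in WT VSMC (background 3.92% higher, 3.53% lower), 2 higher and 1 lower in KO VSMC (0.279% and 0.12%) and 6 higher and 3 lower in EC (1.14% and 2.04%). The medians under ALL were 0.10, 0.04 and 0.06, against -0.01, 0.00 and -0.01 over all genes. The counts in VSMC moved with single sets. Under HG + FFA no WT member was called without set 1 or 3, no KO member without set 6 or 7, and 7 KO members without set 5, the set that kept part of its Egfr RNA (Ech1, Acadl, Acaa2 and Etfdh higher, Ivd, Echs1 and Hsd17b10 lower). The share of all genes called moved along, with 0.148% and 0.136% without WT set 1 and 3, 0.0286% and 0% without KO set 6 and 7, and 8.57% without KO set 5. Under ALL 3 WT members were called without set 1 (Ech1, Acadm and Acadvl) and 1 without set 2, 3 or 4, while no KO member was called without set 6 or 7 and 2 without set 8. Over all genes the shares under ALL were 2.89% to 5.74% without 1 of the WT sets and 0.0114%, 0% and 0.198% without KO set 6, 7 and 8. Altogether 9 of the 34 genes were called in at least 1 of these 6 comparisons with a metabolic stressor and 25 in none. That is 26.5%, against 9.84% of the 18594 genes tested in any of them.

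**Figure D2:**
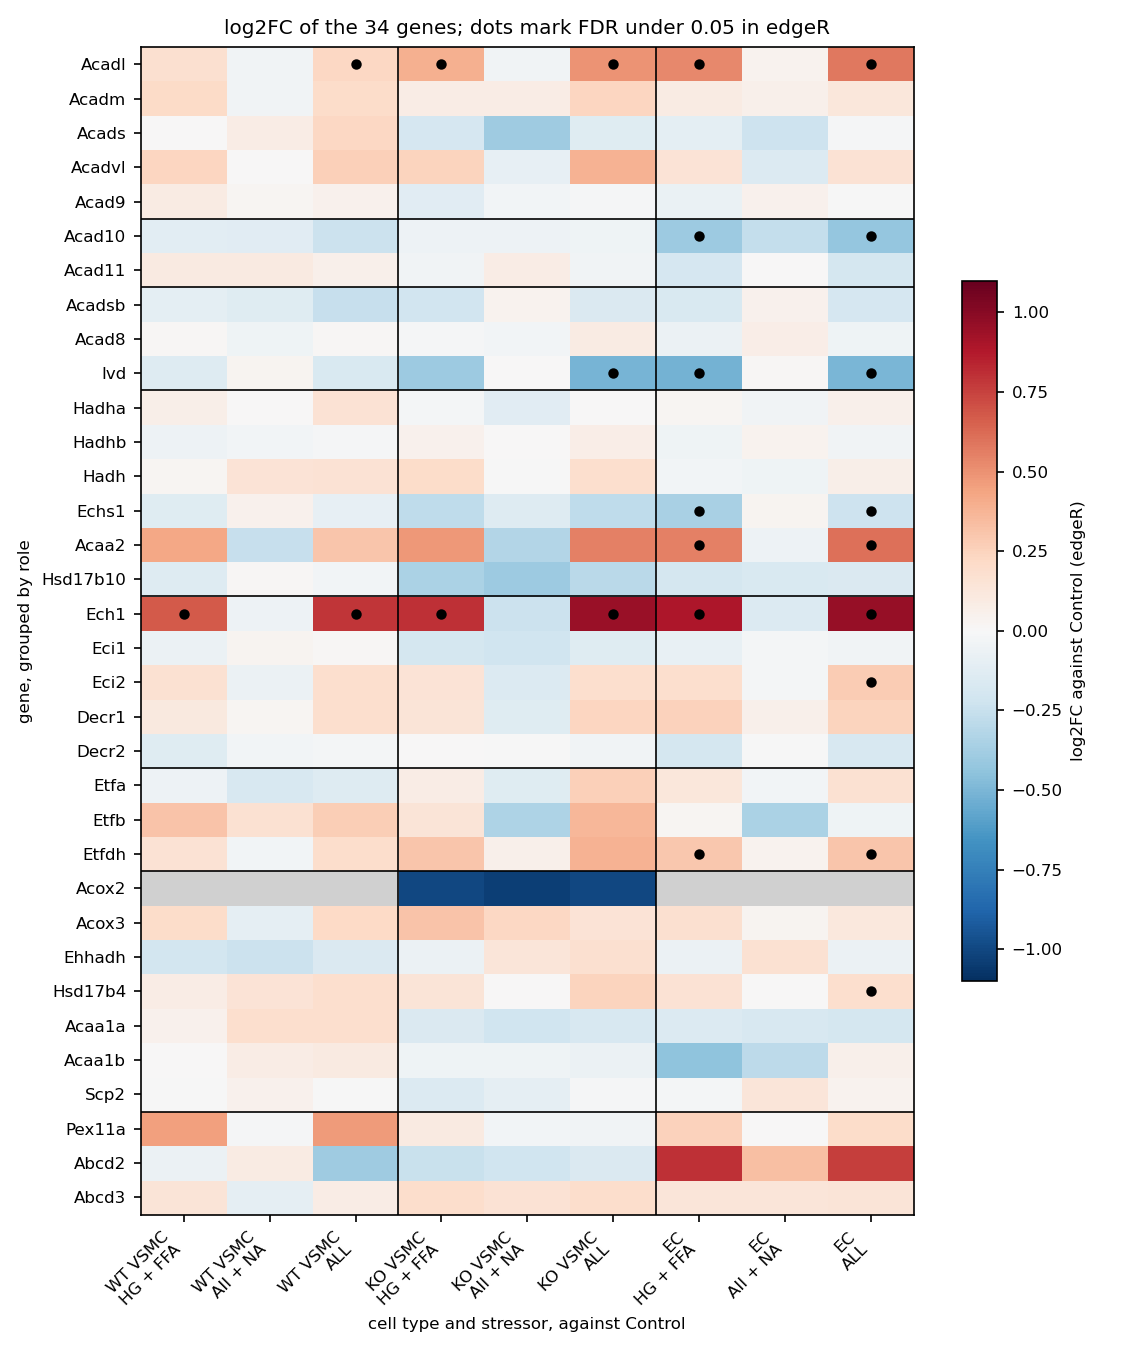
The log2FC against Control (edgeR) of the 34 genes, grouped by role (rows), in each cell type and condition (columns), with red for higher and blue for lower a dot where the FDR was below 0.05 and grey where the gene was not tested. Ech1 carries a dot under HG + FFA and ALL in all 3 cell types, and no gene carries one under AII + NA.

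The study itself counted a gene as differentially expressed (DEG) at an FDR below 0.05 in both edgeR and DESeq2, an absolute log2FC of 0.64 or more, and an abundance of 3 FPM or more. Under this rule Ech1 was the one DEG among the members in each of the 6 comparisons, where the DEGs were 0.284% and 2.24% of all genes under HG + FFA and ALL in WT VSMC, 0.291% and 0.314% in KO VSMC, and 0.653% and 0.636% in EC. The fits used the set as a block. Without the block, no VSMC call remained and Ech1 was the one call left in EC. Over all genes this fit called 0% in VSMC and 2 of 17148 genes in EC under HG + FFA and under ALL.

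The auxiliary enzymes for unsaturated chains held the largest response. Ech1 (ENSMUSG00000053898, chr7:28524036-28531674, plus strand, GRCm39) had 133, 199, 223 and 239.8 FPM in the Control libraries of WT VSMC sets 1 to 4. HG + FFA gave 289, 266, 356 and 333 FPM in the same order and ALL gave 253, 371, 383 and 343 FPM. Every library with metabolic stressors lay above every Control library of WT VSMC, and all 4 sets rose. The AII + NA libraries, with 126, 154, 240.2 and 249 FPM, lay across the Control range. The log2FC was 0.68 ± 0.12 under HG + FFA (1.60-fold, SE, 4 sets, FDR 0.0219 in edgeR) and 0.79 ± 0.12 under ALL (1.72-fold, FDR 0.00179 in edgeR). Under AII + NA it was -0.06 ± 0.12.

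In KO VSMC, Ech1 showed the same picture under the metabolic stressors. Control libraries of sets 5 to 8 had 203, 111, 154 and 222 FPM, HG + FFA libraries 337, 252, 275 and 309 FPM, and the ALL libraries of sets 6 to 8 had 259, 289 and 352 FPM. Again no library with metabolic stressors overlapped with Control. AII + NA libraries had 209, 116, 118 and 139 FPM, within the Control range, but their mean was lower (145.5 against 172 FPM in Control). The log2FC was 0.80 ± 0.12 under HG + FFA (1.74-fold, 4 sets, FDR 0.00662 in edgeR) and 0.95 ± 0.13 under ALL (1.93-fold, 3 sets, FDR 0.00533 in edgeR).

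In EC, Ech1 ranged from 78.2 to 137 FPM in Control (median 99.7, n = 9), from 110.4 to 270.1 FPM in HG + FFA (median 187, n = 10) and from 133 to 274 FPM in ALL (median 196, n = 10). The ranges overlapped slightly across animals, but within the sets all 9 rose under each condition. AII + NA gave 73 to 118 FPM (median 86.1, n = 9) and was lower than Control in 7 of 8 sets, with a log2FC of -0.15 ± 0.07 that was not called (FDR 0.719 in edgeR). The log2FC of 0.89 ± 0.07 under HG + FFA (1.85-fold, FDR 4.56e-10) and of 0.95 ± 0.07 under ALL (1.94-fold, FDR 5.54e-11) came from edgeR. In the EC sets with few endothelial markers (9, 11 and 13) the log2 ratio of HG + FFA to Control was 0.97 to 1.28, in the other 6 sets 0.43 to 0.99. Under ALL it was 0.70 to 1.15 and 0.69 to 1.19. The call in WT VSMC under HG + FFA was lost without set 1 (log2FC 0.52, FDR 0.195) or set 3 (0.68, FDR 0.213), and the calls in KO VSMC without set 6 (FDR 0.216 under HG + FFA, 0.136 under ALL) or set 7 (FDR 0.251 and 0.212), each time with the direction kept.

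**Figure D3:**
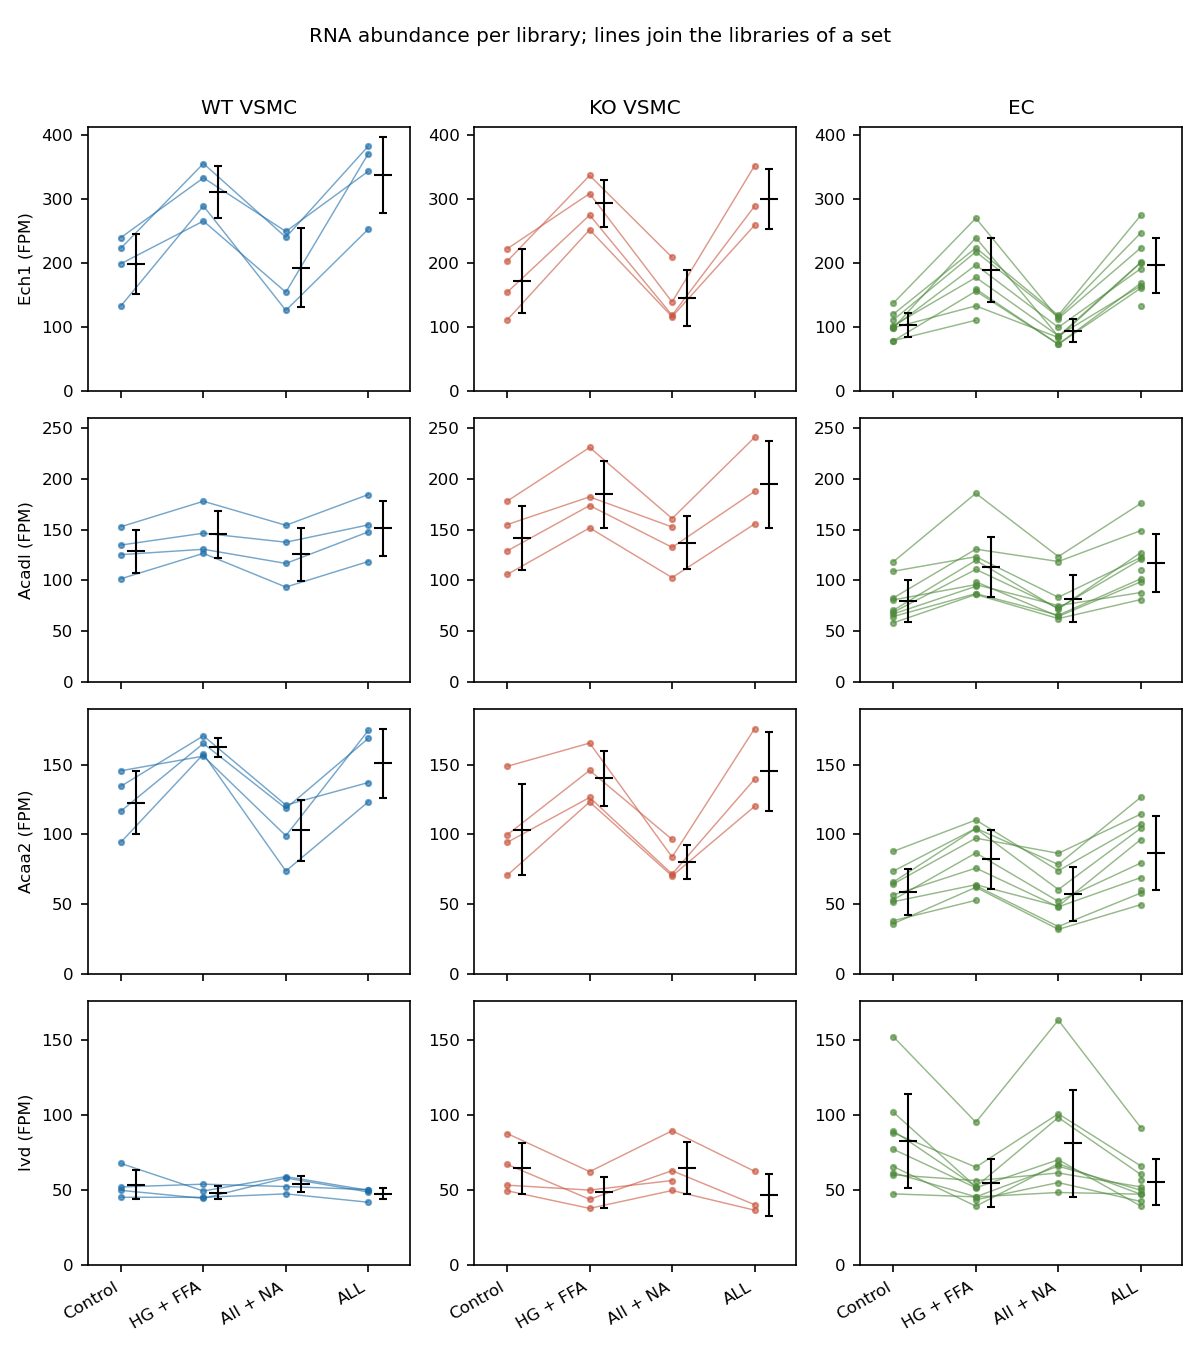
RNA abundance (FPM) of Ech1, Acadl, Acaa2 and Ivd (rows) in WT VSMC, KO VSMC and EC (columns) by condition, with 1 point per library, lines joining the libraries of a set, and the mean with SD in black. Ech1 rises in every set from Control to HG + FFA and from AII + NA to ALL, while Ivd falls in all 9 EC sets with both libraries.

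Among the other auxiliary enzymes, Eci2 (ENSMUSG00000021417, chr13:35161718-35211079), an enoyl-CoA isomerase of mitochondria and peroxisomes, was called in EC under ALL. Its EC levels were 46 to 79.5 FPM in Control (median 64.4) and 62.2 to 99.5 FPM in ALL (median 72.0), overlapping ranges, with 7 of 9 sets higher. The log2FC was 0.28 ± 0.07 (FDR 0.0319 in edgeR). The call was lost without set 9, 12, 13, 14, 15, 17 or 18 (log2FC 0.23 to 0.29, FDR 0.0515 to 0.111) and with the animal as the block (0.28, FDR 0.0983). In VSMC the log2FC of Eci2 under HG + FFA and ALL lay between 0.15 and 0.19 and was not called. Decr1, the mitochondrial dienoyl-CoA reductase that also serves unsaturated chains, had a log2FC of 0.26 ± 0.08 under HG + FFA in EC (FDR 0.0560 in edgeR and 0.0275 in DESeq2). Eci1 and Decr2, the remaining isomerase and the peroxisomal reductase, had log2FC between -0.19 and 0.01 under HG + FFA and ALL and were not called.

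The sequence upstream of RefSeq's start site was inspected for the motif of a PPAR response element. The reason was that PPARs bind fatty acids and that Ech1, Acadl and Acaa2 were all called higher in EC under HG + FFA and ALL. RefSeq's promoter table (build GRCm38.p6) held 29 of the 34 genes (without Abcd2, Acad9, Hsd17b4, Acaa2 and Decr1), and the 250 bases upstream of the start were searched on both strands. The direct repeat, 2 copies of AGGTCA with 1 free base between them, was found exactly in 0 members and in 0.0335% of 32851 promoter windows of the table. With at most 2 mismatches in the 12 defined positions it was found in 2 members, Echs1 and Etfa, and in 3.24% of the windows. A single AGGTCA was found in 4 members (Acadm, Acadvl, Echs1 and Scp2), which is 13.8% of the 29 members, against 14% of the windows. The best site of Ech1 had 4 mismatches, as few as in 74.5% of the windows. These are matches of letters within these windows and no measurement of binding. The stretch of the Ech1 promoter and the sites of Echs1 and Etfa are printed 5′ to 3′ on the strand of the gene, with the best match to the repeat in capitals, the first because Ech1 carried the largest change and the others because they held the closest matches. They were placed by exact match in GRCm39 at chr7:28524513-28524623 (plus strand, Ech1), chr7:139696397-139696425 (minus strand, Echs1) and chr9:55419584-55419612 (minus strand, Etfa), and the match of Etfa read on the opposite strand. RefSeq's start sites lie inside the gene spans given here from GENCODE, which begin at the outermost transcript, so that all 3 stretches are upstream of RefSeq's start but within those spans.
Ech1: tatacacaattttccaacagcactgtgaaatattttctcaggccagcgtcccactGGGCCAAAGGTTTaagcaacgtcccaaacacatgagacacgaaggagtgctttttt
Echs1: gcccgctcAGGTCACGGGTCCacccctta
Etfa: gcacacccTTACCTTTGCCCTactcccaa

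Of the 5 straight-chain acyl-CoA dehydrogenases of mitochondria, Acadl rose in all 3 cell types. Acadl (ENSMUSG00000026003, chr1:66868267-66902633) encodes the long-chain enzyme. WT VSMC had 102, 125, 153 and 135 FPM in Control and 119, 148, 184 and 155 FPM in ALL. The ranges overlapped, because the sets kept their order, but all 4 sets rose, by a log2 ratio of 0.20 to 0.27. The log2FC under ALL was 0.23 ± 0.07 (1.17-fold, FDR 0.0445 in edgeR), and under HG + FFA, with 127, 131, 178 and 146 FPM, it was 0.18 ± 0.07 and not called (FDR 0.300). KO VSMC sets 5 to 8 had 155, 106, 129 and 178 FPM in Control and 182, 152, 174 and 231 FPM in HG + FFA. In the ALL libraries of sets 6 to 8 it was 156, 188 and 241 FPM. Each KO set rose, with a log2FC of 0.39 ± 0.08 under HG + FFA (FDR 0.0402 in edgeR) and 0.50 ± 0.09 under ALL (FDR 0.0210 in edgeR).

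In EC, Acadl had 58.4 to 118 FPM in Control (median 70.7), 86.2 to 186 FPM in HG + FFA (median 105) and 81.2 to 176 FPM in ALL (median 116). All 9 sets rose under both, in overlapping ranges, with a log2FC of 0.52 ± 0.07 (1.44-fold, FDR 1.04e-05 in edgeR) and 0.58 ± 0.07 (1.49-fold, FDR 1.96e-06 in edgeR). The calls of Acadl in VSMC were near the threshold. In WT VSMC under ALL the FDR was 0.0648 to 0.190 without any 1 of sets 1 to 4. In KO VSMC it was 0.151 to 0.620 under HG + FFA and 0.0880 to 0.573 under ALL without set 6, 7 or 8.

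The other straight-chain dehydrogenases were not called by edgeR against Control. Acadvl, the very-long-chain enzyme, had a log2FC of 0.15 to 0.25 under HG + FFA and 0.16 to 0.39 under ALL in the 3 cell types. DESeq2 called it under ALL in WT VSMC (FDR 0.0418) and KO VSMC (FDR 0.0359). Of its exonic bases, 38.2% overlap with Dvl2 on the opposite strand, and the counting was not stated to use strand. Acadm, the medium-chain enzyme, lay between 0.08 and 0.23, Acads, the short-chain enzyme, between -0.19 and 0.23, and Acad9, a dehydrogenase that also serves assembly of respiratory complex I, between -0.12 and 0.09.

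Acad10, a family member with a less defined substrate, fell in EC. Acad10 (ENSMUSG00000029456, chr5:121759087-121799017) had 10.5 to 26.3 FPM in EC Control (median 12.3), 7.43 to 18.5 FPM in HG + FFA (median 9.05) and 6.84 to 19.4 FPM in ALL (median 9.26). The ranges overlapped and 8 of 9 sets were lower under each. Its log2FC was -0.40 ± 0.09 under HG + FFA (FDR 0.0107 in edgeR) and -0.42 ± 0.09 under ALL (FDR 0.00711 in edgeR). The first was lost without set 12 (-0.36, FDR 0.0643), and both were lost without the low-marker sets 9, 11 and 13 (-0.41, FDR 0.0804 and -0.40, FDR 0.109). AII + NA gave -0.27 ± 0.10 in EC (unadjusted p 0.00919, FDR 0.719 in edgeR). In VSMC Acad10 had log2FC from -0.23 to -0.05 under HG + FFA and ALL and was not called. Its relative Acad11 was not called under any stressor, with values from -0.19 to 0.10.

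The acyl-CoA dehydrogenases of branched-chain amino acid breakdown share the chemistry but act on leucine, isoleucine and valine intermediates. Against Control, edgeR called only Ivd among them in the fit used here, each time as lower. Ivd (ENSMUSG00000027332, chr2:118692141-118714335) encodes isovaleryl-CoA dehydrogenase of leucine catabolism. EC levels were 47.4 to 152 FPM in Control (median 77.2), 39.2 to 95.2 FPM in HG + FFA (median 51.8) and 39.3 to 91.7 FPM in ALL (median 50.9). All 9 sets were lower under each condition although the ranges overlapped, whereas AII + NA, with 48.3 to 163 FPM (median 67.6), was higher than Control in 6 of 8 sets. The log2FC was -0.52 ± 0.08 under HG + FFA (FDR 0.000113 in edgeR) and -0.50 ± 0.08 under ALL (FDR 0.000153 in edgeR).

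KO VSMC sets 5 to 8 had 53.2, 87.7, 67.1 and 49.5 FPM of Ivd in Control and 49.9, 62.2, 43.8 and 37.7 FPM in HG + FFA. The ALL libraries of sets 6 to 8 had 62.5, 40.2 and 36.5 FPM. Every KO set was lower, by -0.40 ± 0.09 under HG + FFA (FDR 0.0826 in edgeR, 0.00593 in DESeq2) and by -0.51 ± 0.10 under ALL (FDR 0.0424 in edgeR). The latter call was lost without set 6, 7 or 8 (FDR 0.257, 0.845 and 0.134). In WT VSMC Ivd was 67.7, 49.7, 52.0 and 45.1 FPM in Control, 49.3, 44.4, 53.9 and 45.1 FPM in HG + FFA and 49.7, 48.6, 50.2 and 41.8 FPM in ALL. There the log2FC of -0.15 ± 0.08 and -0.16 ± 0.08 were not called. Acadsb, the short and branched-chain enzyme of isoleucine catabolism, was lower in each cell type under HG + FFA and ALL, with a log2FC from -0.25 to -0.11, none of which edgeR called. DESeq2 called it in WT VSMC under ALL (FDR 0.0284), and edgeR in EC without set 13 (FDR 0.0152 under HG + FFA and 0.0166 under ALL) or without the low-marker sets 9, 11 and 13 (FDR 0.0447 and 0.0439). Acad8, isobutyryl-CoA dehydrogenase of valine catabolism, lay between -0.06 and 0.09.

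Within the remaining matrix steps, the thiolase rose and the short-chain hydratase fell, both in EC. Acaa2 (ENSMUSG00000036880, chr18:74911948-74953492) had 35.8 to 87.7 FPM in EC Control (median 56.5), 52.6 to 110.2 FPM in HG + FFA (median 81.2) and 49.4 to 127 FPM in ALL (median 87.8). All 9 sets rose under both, in overlapping ranges, with a log2FC of 0.56 ± 0.07 (1.47-fold, FDR 1.04e-05 in edgeR) and 0.61 ± 0.07 (1.52-fold, FDR 2.17e-06 in edgeR). WT VSMC had 94.4, 146, 117 and 134 FPM in Control, 158, 156, 165 and 171 FPM in HG + FFA and 123, 175, 169 and 137 FPM in ALL. HG + FFA did not overlap with Control and ALL did. The log2FC of 0.42 ± 0.11 under HG + FFA was not called by edgeR (FDR 0.123) but by DESeq2 (FDR 0.0295). KO VSMC had 99.6, 70.5, 94.2 and 149 FPM in Control, 146, 123, 126 and 165 FPM in HG + FFA, and 120.0, 139.5 and 176 FPM in ALL. Each KO set rose, with 0.47 ± 0.11 (FDR 0.101 in edgeR, 0.0223 in DESeq2) and 0.55 ± 0.13 (FDR 0.0805 and 0.0118).

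Echs1 (ENSMUSG00000025465, chr7:139684839-139696570), the short-chain enoyl-CoA hydratase, had 44.2 to 108 FPM in EC Control (median 64.2), 41.1 to 81.0 FPM in HG + FFA (median 49.7) and 42.4 to 95.7 FPM in ALL (median 57.2). All 9 sets were lower under HG + FFA and 8 of 9 under ALL, in overlapping ranges. The log2FC was -0.36 ± 0.06 (FDR 0.000397 in edgeR) and -0.22 ± 0.06 (FDR 0.0326 in edgeR). The call under ALL was lost without any 1 of sets 10 to 18 (FDR 0.0540 to 0.117), without sets 9, 11 and 13 (FDR 0.0958), without sets 15 and 16 (FDR 0.170) and with the animal as the block (FDR 0.192), whereas that under HG + FFA held without each of the 10 sets in turn. In KO VSMC, with a log2FC of -0.28 ± 0.10 under HG + FFA and -0.28 ± 0.11 under ALL, and in WT VSMC, with -0.13 ± 0.07 and -0.09 ± 0.07, Echs1 was not called. Hsd17b10, a hydroxyacyl-CoA dehydrogenase that is also a subunit of mitochondrial RNase P, lay between -0.35 and -0.03 under HG + FFA and ALL without a call. The subunits of the trifunctional protein, Hadha and Hadhb, which handle long chains, stayed between -0.06 and 0.16 (31% of the exonic bases of Hadha overlap other genes, mainly the opposite-strand gene Garem2), and Hadh, the dehydrogenase for shorter chains, between -0.03 and 0.20.

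In the electron transfer flavoprotein system, Etfdh was called in EC. Etfdh (ENSMUSG00000027809, chr3:79511086-79536807) encodes the dehydrogenase that hands electrons from the flavoprotein to ubiquinone. EC had 17.1 to 47.8 FPM in Control (median 40.5), 31.0 to 55.9 FPM in HG + FFA (median 48.9) and 32.0 to 55.8 FPM in ALL (median 47.7), with 8 of 9 sets higher under each and overlapping ranges. The log2FC was 0.30 ± 0.07 in both (FDR 0.00936 and 0.00901 in edgeR). The log2 ratio under ALL was 0.33 to 0.90 in the low-marker sets 9, 11 and 13 and -0.07 to 0.36 in the other 6 sets, and without those 3 sets the calls were lost (0.23, FDR 0.0987 under HG + FFA and 0.21, FDR 0.140 under ALL). In KO VSMC, Etfdh had 39.6, 40.6, 34.9 and 31.4 FPM in Control and 44.5, 49.1, 45 and 42 FPM in HG + FFA. The groups did not overlap, but edgeR did not call the log2FC of 0.31 ± 0.08 (FDR 0.178, DESeq2 0.0274). In WT VSMC it was 0.16 ± 0.08 under HG + FFA and 0.19 ± 0.08 under ALL.

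Etfa had a log2FC of -0.05 (WT VSMC), 0.08 (KO VSMC) and 0.13 (EC) under HG + FFA, and -0.14, 0.26 and 0.17 under ALL, without a call in edgeR. Etfb, the beta subunit, was counted at 3.15 to 26.2 FPM, and 43.5% of its exonic bases overlap other genes. The same-strand gene Etfbl alone overlaps 39.6% of all Etfb exonic bases. Its level is therefore uncertain, and it was not called against Control.

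Among the peroxisomal genes edgeR called 1 against Control. Hsd17b4 (ENSMUSG00000024507, chr18:50261268-50330439), the bifunctional enzyme for branched and very long chains, had 76.6 to 120.3 FPM in EC Control (median 98.7) and 78.4 to 136 FPM in ALL (median 111), with 8 of 9 sets higher and overlapping ranges. The log2FC was 0.19 ± 0.05 (1.14-fold, FDR 0.0271 in edgeR), and the call was lost without set 12, 13, 14, 15 or 18 (0.17 to 0.19, FDR 0.0555 to 0.0926) without sets 9, 11 and 13 together (0.16, FDR 0.193) and with the animal as the block (0.19, FDR 0.185). WT VSMC had 107, 96.9, 113 and 109.8 FPM in Control and 115, 114, 126 and 128 FPM in ALL, which did not overlap, with 0.18 ± 0.06 (FDR 0.0821 in edgeR, 0.0211 in DESeq2). Acox3, the oxidase for branched chains, lay between 0.11 and 0.31 under HG + FFA and ALL and was not called. Acaa1a, Acaa1b, Scp2 and Ehhadh were not called, with log2FC from -0.45 to 0.19 under HG + FFA and ALL. Acox2 was tested in KO VSMC only, with a log2FC of -1.0 ± 0.40 under HG + FFA and -1.0 ± 0.44 under ALL, values that rest on less than 2 FPM. Acaa1a and Acaa1b are near-identical paralogs and reads mapping to several places were counted, so the split between them is uncertain. Of the membrane genes, Pex11a, a factor of peroxisome division and proliferation, had 8.29, 9.16, 12.4 and 7.55 FPM in WT VSMC Control and 12.8, 12.5, 15.6 and 10.3 FPM in ALL. These ranges overlapped, and the log2FC of 0.47 ± 0.14 was called by DESeq2 (FDR 0.0204) and narrowly not by edgeR (FDR 0.0551). In edgeR it was called without the filter on low counts (0.46, FDR 0.00402) and with only the 2 groups compared (0.47, FDR 0.0265). These fits called 5.61% and 5.67% of all genes. The transporter genes of very long chains were not called against Control in the fit used here, with a log2FC for Abcd3 from -0.10 to 0.20 and for the scarce Abcd2 from -0.40 ± 0.21 (WT VSMC, ALL) to 0.80 ± 0.32 (EC, HG + FFA). In EC edgeR called Abcd2 under HG + FFA without set 18 (0.81, FDR 0.0399), and without the filter on low counts under HG + FFA (0.78, FDR 0.0125) and ALL (0.76, FDR 0.0192).

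Whether the metabolic stressors acted on these genes also in the presence of humoral stress was addressed by ALL against AII + NA, a comparison that shares no library with HG + FFA against Control. In WT VSMC 2 members were higher (background 0.704% higher, 0.657% lower), in KO VSMC 3 were higher and 1 lower (0.262% and 0.137%), and in EC 7 were higher and 3 lower (1.38% and 1.84%). Ech1 rose in every set, with a log2FC of 0.84 ± 0.13 in WT VSMC (FDR 0.00414 in edgeR), 1.19 ± 0.13 in KO VSMC (FDR 0.00103) and 1.11 ± 0.07 in EC (FDR 8.35e-13). Acaa2 rose in every set too, from 73.6, 98.9, 119 and 121 FPM to 123, 175, 169 and 137 FPM in WT VSMC without overlap (0.56 ± 0.11, FDR 0.0247 in edgeR). In KO VSMC its AII + NA libraries had 96.3, 70.0, 71.4 and 83.6 FPM, below all ALL libraries, with a log2FC of 0.88 ± 0.13 (FDR 0.00441 in edgeR). In EC it was 0.66 ± 0.07 (FDR 3.27e-07 in edgeR). Acadl was called in KO VSMC (0.54 ± 0.09) and EC (0.54 ± 0.07) and missed the threshold in WT VSMC (0.27 ± 0.07, FDR 0.0545 in edgeR). Ivd was lower in KO VSMC (-0.51 ± 0.10) and EC (-0.52 ± 0.08). Eci2, Etfdh, Hsd17b4 and Acadvl were further genes higher in EC, with log2FC from 0.19 to 0.31, and Echs1 (-0.25 ± 0.06) and Acadsb (-0.23 ± 0.07) were lower. None of the 4 KO calls remained without set 6 or without set 7, while 1 of 2 in WT VSMC remained without set 1, 2 or 3, and 6 in EC without set 12 or 14. Over all genes these fits called 0.0114% and 0.0113% in KO VSMC, 0.33% to 0.553% in WT VSMC, and 2.06% and 2.18% in EC.

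For each gene the log2FC of the metabolic stressors with and without humoral stress could thus be set side by side. They had the same sign in 28 of 33 members in WT VSMC (84.8%, against 70.1% of all genes tested), in 19 of 34 in KO VSMC (55.9%, against 51.5%) and in 29 of 33 in EC (87.9%, against 57.1%). Pearson's r across the members was 0.862, 0.677 and 0.815, against 0.467, 0.200 and 0.256 across all genes, a description over genes whose libraries came from the same animals and were fitted together. The members called in both comparisons were Ech1 in WT VSMC, Ech1 and Acadl in KO VSMC, and Ech1, Acadl, Acaa2, Etfdh, Ivd and Echs1 in EC, where 62 of 16905, 38 of 17538 and 209 of 17148 genes tested were called in both. ALL against HG + FFA, the addition of humoral to metabolic stress, gave no called member in any cell type (edgeR and DESeq2). Over all genes edgeR called 0.0414%, 0% and 0%, and DESeq2 1.64%, 0% and 0% of genes with an adjusted p. At an unadjusted p below 0.05 there were 1, 0 and 2 members, where 10.8%, 2.91% and 5.14% of all genes passed. A departure of ALL from the sum of both single effects was called for no member either, in edgeR or DESeq2, with 0% of all genes called in each cell type. There 0, 5 and 3 members had an unadjusted p below 0.05, as had 1.72%, 6.59% and 8.42% of all genes.

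**Figure D4:**
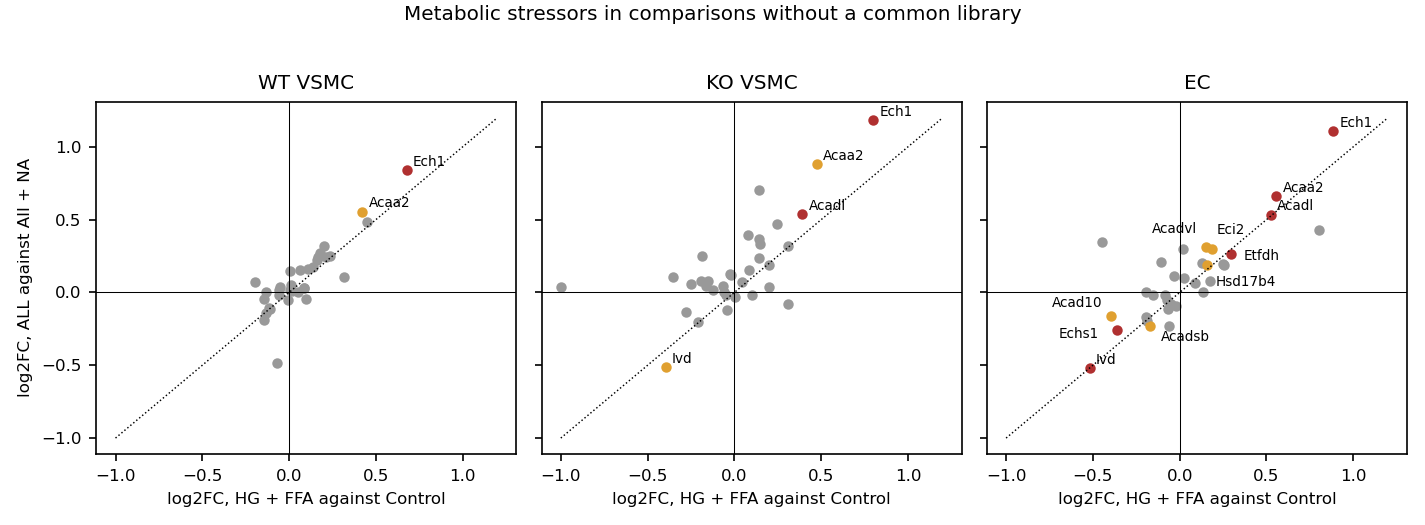
The log2FC of HG + FFA against Control (x axis) and of ALL against AII + NA (y axis) for each gene in WT VSMC, KO VSMC and EC, 2 comparisons without a common library, with a dotted line of identity and points in red where a gene was called in both, orange where in 1 and grey where in none. Ech1 lies farthest to the upper right in all panels, and Ivd at the lower left in KO VSMC and EC.

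The size of the stressor effects was compared between cell types by the difference of the log2FC in 1 model. No member was called for KO minus WT VSMC or for EC minus WT VSMC in edgeR, where 0%, 0% and 0.0109% (KO) and 0%, 0.0465% and 0.511% (EC) of all genes were called for HG + FFA, AII + NA and ALL. At an unadjusted p below 0.05 there were 1, 6 and 5 members for KO (3.08%, 11.9% and 7.42% of all genes) and 4, 3 and 6 for EC (2.05%, 6.5% and 6.48%). DESeq2 called 1 of them, Etfa, for KO minus WT VSMC under ALL (0.38, FDR 0.0277, edgeR 0.40 ± 0.10, FDR 0.223). Etfa had 139, 151 and 135 FPM in ALL and 119.6, 126, 119 and 116 FPM in Control of KO VSMC, without overlap, whereas WT VSMC had 109.5, 124, 114 and 140.3 FPM in ALL and 124, 135, 124 and 154 FPM in Control. For Ech1 the effect of HG + FFA was larger by 0.12 ± 0.18 in KO than in WT VSMC and by 0.20 ± 0.14 in EC than in WT VSMC (unadjusted p 0.514 and 0.150 in edgeR). For Acadl the corresponding differences were 0.21 ± 0.09 (unadjusted p 0.0362, FDR 1) and 0.34 ± 0.12 (unadjusted p 0.00506, FDR 1 in edgeR), and for Ivd -0.25 ± 0.12 and -0.38 ± 0.13. Calls made in EC and not in WT VSMC were thus not shown to be different effects, and WT VSMC had 4 sets against 10 of EC.

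The direction of the log2FC was the same in all 3 cell types for 21 of 33 members under HG + FFA (13 higher, 8 lower), which is 63.6% and compares with 52.2% of 15880 genes tested in all. Under ALL it was the same for 13 higher and 6 lower members (57.6%, against 44.5%) and under AII + NA for 3 higher and 6 lower (27.3%, against 25.1%). Members higher throughout under HG + FFA included Ech1, Eci2, Decr1, Acadl, Acadm, Acadvl, Acaa2, Etfdh, Hsd17b4 and Pex11a. Those lower throughout included Ivd, Acadsb, Acad10, Echs1, Hsd17b10 and Eci1. The spread of the single values sets the limit here, since the median SE of a log2FC under HG + FFA was 0.08 for WT VSMC, 0.09 for KO VSMC and 0.07 for EC, and 29, 25 and 22 of the members lay within 0.25 of 0.

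Neighbouring genes of the same metabolism, a list of 24 with the carnitine shuttle, acyl-CoA thioesterases, peroxisomal entry enzymes, lipid storage and PPARs, of which 23 were tested, were called in 1 direction only. The list was drawn up with earlier results of these data known. Its counts beside the share of all genes are therefore a description and no test. Under HG + FFA 2 (WT VSMC), 6 (KO VSMC) and 9 (EC) were called higher, under ALL 6, 6 and 9, and none was called lower. Of all genes, 0.319%, 0.336% and 1.64% were called higher under HG + FFA and 3.92%, 0.279% and 1.14% under ALL. Under AII + NA edgeR called none, with 1, 2 and 2 at an unadjusted p below 0.05, as had 9.42%, 9.76% and 6.67% of all genes. Without KO set 7 edgeR called no gene at all in KO VSMC under HG + FFA or ALL. The 6 calls of neighbouring genes there were thus lost too. Without KO set 6 it called 5 and 2 of all genes. Angptl4, a secreted inhibitor of lipoprotein lipase, had the largest log2FC with 3.22 ± 0.31 under HG + FFA in EC (FDR 2.25e-08 in edgeR) and 2.13 ± 0.36 in KO VSMC, while its log2FC of 1.32 ± 0.29 in WT VSMC was not called (FDR 0.0574 in edgeR). Pdk4, a kinase that restrains pyruvate oxidation, rose under HG + FFA by a log2FC of 1.52 ± 0.23 (WT VSMC), 1.63 ± 0.19 (KO VSMC) and 1.2 ± 0.13 (EC). Cpt1a, which forms the acylcarnitines for import, was called in KO VSMC (1.04 ± 0.17) and EC (0.80 ± 0.07) under HG + FFA and in WT VSMC under ALL (0.53 ± 0.14). The largest rise among the 34 oxidation genes against Control, that of Ech1 under ALL in EC with 0.95, was thus smaller than the changes of Angptl4 and Pdk4 in the same comparison (3.22 and 1.11).

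Markers of the cell types moved with some of these comparisons. In EC, Emcn of 9 endothelial markers rose by 0.37 under HG + FFA and by 0.40 under ALL, while the summed endothelial markers ranged from 54.4 to 4226 FPM in Control, from 64.2 to 5004 FPM in HG + FFA and from 60.1 to 4721 FPM in ALL. Col1a1 of 5 fibroblast markers and Cspg4 of 4 pericyte markers fell under HG + FFA in EC, by 0.73 and 1.37. In WT VSMC under ALL, Tagln and Mylk of 7 smooth muscle markers rose by 0.95 and 1.11, and their sum was 380.3 to 1210 FPM in Control and 1119 to 1590 FPM in ALL. Cdh5 and Emcn of 9 endothelial and Rgs5 and Kcnj8 of 4 pericyte markers fell and Tnnt2 of the cardiomyocyte markers rose in the same comparison. The part of these shifts in the changes of the oxidation genes was not tested.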

How the data were processed

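Poly(A)-selected RNA was sequenced in paired ends, and the authors aligned the reads to mm39 with HISAT2 2.1.0 and counted them per Ensembl gene with featureCounts. Strand and pair settings were not given in the sources used here, and multi-mapping reads were counted. The deposited tables held raw counts, 1 table each for WT VSMC, KO VSMC and EC. Of 56953 gene identifiers, 56310 were in the annotation used for names, coordinates and lengths (GENCODE, GRCm39), and the others took 0.0241% of counts.

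Counts were filtered by filterByExpr, TMM-normalised and fitted with edgeR 4.0.16 (quasi-likelihood, R 4.3.3) per cell type with all conditions and the set as a block, and p-values were adjusted over all genes tested (WT VSMC 16905, KO VSMC 17538, EC 17148). Differences between cell types were fitted on joined tables. The pairing came from the set number in the sample titles, and the animal of the labels was the block in an alternative fit only. Deviations from the mean of each condition correlated within sets with a mean r of 0.703, 0.663 and 0.717 in WT VSMC, KO VSMC and EC (lowest 0.443). Those of other sets correlated with -0.226, -0.218 and -0.0760, where subtracting the mean by itself pulls r below 0. No library pair of a group agreed within sampling noise. The scripts were tested on simulated data. SE is the log2FC divided by the root of the F statistic, and set ratios used a pseudocount of 0.1 FPM. Libraries of a set are cultures of 1 animal and sets were taken as replicates, although EC sets 17 and 18 share an animal, so that 10 EC sets came from 9 animals.

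The 34 genes and all other lists were chosen with earlier results of these data known. Library values were given by a rule for members called under HG + FFA or ALL, or called lower, and those of Acox2, Etfa, Acaa1b and Pex11a were added after their values were seen. Up to 4 neighbouring genes were named by size of the change, of which 1 is not reported here. Alternatives were DESeq2 1.42.0, its size factors in edgeR, the DEG rule, no filter, no block, fewer groups, complete sets, the animal as block and leaving out each set. Leaving out EC sets 9, 11 and 13, or 15 and 16, was chosen after seeing the data. The intervals cover the spread between sets only.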

Additional observations from a re-analysis of the deposited data

Results flagged for a closer look

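Of 99 groups of 4 to 10 libraries examined for the 9 genes with a call, 13 held 1 library far from the others by Dixon's criterion, which chance alone flags in about 1 of 20 groups. EC set 14 had the highest Acad10 in all 4 conditions, with 26.3 FPM in Control (next 16.8), 18.5 in HG + FFA (next 13), 24.0 in AII + NA (next 13.9) and 19.4 in ALL (next 12). The same set stood apart for Ivd, with 95.2 FPM in HG + FFA (next 65.2), 163 in AII + NA (next 101) and 91.7 in ALL (next 66.1). EC set 13, a set with few endothelial markers, had low Etfdh with 17.1 FPM in Control (next 32.3) and 24.4 in AII + NA (next 35.2), and high Acadl with 186 FPM in HG + FFA (next 131). In VSMC the flagged libraries were all of AII + NA, namely Eci2 with 73.8 FPM in KO set 6 (others 91.6 to 92.8), Etfdh with 34 FPM in WT set 1 (others 39.5 to 40.2) and Etfdh with 32.4 FPM in KO set 8 (others 39.2 to 40.5). These sets were part of a block in the fits, so that a level shared by all conditions of a set did not enter the log2FC.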

How the results depend on the processing

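For the 31 called values of single genes against Control or between EC and WT VSMC, the 545 alternative values all kept the direction, 394 with and 151 without the call. Calls in ALL against AII + NA were followed by their counts only. DESeq2 and DESeq2's size factors kept all 31. Leaving out the replicate block had the strongest effect: the count of called members fell to 0 in WT VSMC under HG + FFA, ALL and ALL against AII + NA, to 0 in KO VSMC in the same 3 comparisons, and to 1 (Ech1) in EC in each of them, where over all genes 0% were called in VSMC and 0.0117%, 0.0117% and 0.0175% in EC. DESeq2 called 2 members in WT VSMC under HG + FFA (adding Acaa2), 6 under ALL and 5 in ALL against AII + NA, and 5, 6 and 8 in KO VSMC, where it called 2.01%, 10.1% and 3.4% and 1.7%, 1.79% and 1.89% of all genes with an adjusted p. It also called 1 (Etfa) for KO minus WT VSMC under ALL and 1 (Acox2) for KO against WT VSMC in Control (0.412% and 2.14% of all genes). The DEG rule left 1 in WT VSMC under ALL and in ALL against AII + NA, 1, 1 and 2 in KO VSMC, and 1, 1 and 2 in EC in the order HG + FFA, ALL and ALL against AII + NA, the last with 0.55%, 0.302% and 0.63% of all genes as DEGs in WT VSMC, KO VSMC and EC.

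Without the filter on low counts there were 3 in WT VSMC under HG + FFA (adding Acaa2 and Pex11a), 5 in ALL against AII + NA, 4 in KO VSMC under HG + FFA (adding Acaa2 and Ivd), 1 under AII + NA (Hsd17b10), 6 in EC in ALL against AII + NA, 1 for EC minus WT VSMC under ALL (Abcd2), and 3 for EC against WT VSMC in Control. Over all genes these fits called 1.71%, 2.88%, 1.85%, 0.828%, 2.31%, 0.932% and 4.74% in the same order. With only the 2 groups compared in the fit there were 2 in WT VSMC under HG + FFA, 0 and 1 in KO VSMC under HG + FFA and ALL, and 4 in EC under ALL, where 1.44%, 0%, 0.635% and 0.985% of all genes were called. Complete sets gave 7 in KO VSMC under HG + FFA and 5 in EC in ALL against AII + NA, where the animal as block also gave 5. The share of all genes called in these fits was 8.57%, 1.36% and 0.927%. With complete sets 5 called values of single genes against Control lost their call, all in EC. There 1.83% and 1.35% of all genes were called under HG + FFA and ALL. With the animal as block Echs1, Eci2 and Hsd17b4 lost their call in EC under ALL, and 0.916% and 0.781% of all genes were called under HG + FFA and ALL. With all conditions in the fit 1 member (Acox2) differed between KO and WT VSMC, in a fit that called 1.13% of all genes. EC against WT VSMC in Control gave 11 without EC sets 9, 11 and 13 and 3 without sets 15 and 16, where 28.5% and 5.84% of all genes were called. The causes were not tested.

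Leaving out 1 set at a time gave 0 to 1 members in WT VSMC under HG + FFA, 1 to 3 under ALL and 1 to 2 in ALL against AII + NA, 0 to 7, 0 to 3 and 0 to 6 in KO VSMC, 6 to 9, 6 to 9 and 6 to 10 in EC, 0 to 1 for KO against WT VSMC and 2 to 8 for EC against WT VSMC in Control. All other comparisons stayed at 0 members, where at most 0.601% of all genes were called. The share of all genes called moved too, given here in the same order. In WT VSMC it was 0.136% to 0.5%, 2.89% to 5.74% and 0.33% to 0.802%. In KO VSMC it was 0% to 8.57%, 0% to 1.04% and 0.0113% to 0.755%. In EC it was 1.43% to 4.19%, 1.79% to 3.55% and 2.06% to 4%. For KO and for EC against WT VSMC in Control it was 0% to 2.41% and 3.72% to 19.4%. The median SE of a log2FC against Control was 0.08 to 0.10 in VSMC and 0.07 to 0.08 in EC, and the smallest called log2FC was 0.23 in VSMC and 0.19 in EC.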
